A study of Mus musculus and Homo sapiens with 4 samples.

Results

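The HOX genes of the 4 human HOX clusters were examined by RNA sequencing of the prostate cancer cell line VCaP and of a derivative overexpressing oestrogen receptor alpha (VCaP ERα). Members were all entries carrying a symbol of HOXA, HOXB, HOXC or HOXD with a paralog number from 1 to 13, which gave 39 of the 25932 entries. HOXA, on chromosome 7, has 11 of them, HOXB 10 (chr17:43961806-44161110), HOXC 9 (chr12:52618843-52736081) and HOXD 9 (chr2:176665778-176763881). Coordinates are those of the files, taken as hg18, the human build named in the submitters' processing notes. Each condition is 1 library of rRNA-depleted, strand-marked RNA, with VCaP cells at passages 5 to 6 and VCaP ERα cells at passages 4 to 5. Both were grown in the same serum-containing medium. Stable ERα expression is stated by the study. The promoter driving the ERα construct, the use of a single clone and any oestrogen treatment of these cultures are not given in the sources used here. No difference has a replicate check, so no P-value is given, and an effect of ERα and a difference between cultures cannot be told apart. Total read numbers are unknown, so no counting interval or detection floor was computed.

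HOX genes encode transcription factors that bind DNA through a homeodomain. In each cluster they lie in the order of their paralog numbers, and during development low-numbered (anterior) genes are used towards the head and high-numbered (posterior) genes towards the tail and the urogenital tract. HOX proteins bind DNA together with TALE homeodomain cofactors (PBX, MEIS and PKNOX). Polycomb proteins keep unused HOX genes silent, and Trithorax proteins maintain active ones. HOXB13 is a posterior gene known for its expression in the adult prostate, where its protein acts beside the androgen receptor. Adult tissues commonly retain a subset of HOX genes that reflects their position in the embryo.

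The markers of the library labelled VCaP went against that label. Of 11 prostate luminal markers other than HOXB13, all were higher in VCaP ERα, with a summed level of 20.3 RPKM in VCaP and 2167 in VCaP ERα, and KLK4 and the entry holding FOLH1 were listed at 0 in VCaP. RPKM is the number of reads per kilobase of entry, scaled to the mapped reads of the library. ERG, the partner of the gene fusion that VCaP cells carry, had 0.0764 RPKM in VCaP and 104 in VCaP ERα. Of the 9 entries of 8 luminal breast markers 7 were lower in VCaP ERα, with sums of 2830 and 347 RPKM, and TFF1 alone had 1596 RPKM of the first. A marker among the 8 has repeated entries at the same coordinates. Both entries count among the 7 and in the sums, and together they hold most of the 347 RPKM. TBX3 went the other way, with 2.64 and 14.4 RPKM (log2 ratio 2.09), and ANKRD30A was near 0 in both (0.00756 and 0.0430 RPKM). Of 5 basal epithelial markers 3 were lower, with sums of 50.1 and 2.85 RPKM, and KRT14 was listed at 0 in VCaP. The sums of 5 stromal markers were 1.35 and 1.77 RPKM. ESR1, the overexpressed gene, had 15.7 and 209 RPKM. These markers move with every HOX difference given here, and their part in it was not tested. The names VCaP and VCaP ERα stand for the libraries so labelled.

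HOX expression was broader and mostly higher in VCaP ERα cells. The summed level of the 39 genes was 26.7 RPKM in VCaP and 137 in VCaP ERα, 5.11-fold higher. In VCaP 5 HOX genes reached 1 RPKM (12.8%), where 45.4% of all entries did. In VCaP ERα 19 HOX genes did (48.7%), near the 46.0% of all entries. In VCaP 13 HOX genes were listed at 0 (33.3%, against 33.8% of all entries), and in VCaP ERα 1 gene was, HOXB2 (2.56%, against 13.9%). The HOX share at 1 RPKM thus lay below that of all entries in VCaP and near it in VCaP ERα.

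Of the 39 genes, 33 were higher in VCaP ERα (84.6%, against 46.6% of all entries) and 6 were lower (15.4%, against 41.2%). Their median log2 ratio was 0.58, and that of all entries was 0.00. The log2 ratio is that of VCaP ERα over VCaP after 1 RPKM was added to each value, which compresses the change of genes with low values. The median over entries that reached 1 RPKM in each library was -0.59. Where the log2 ratio of a gene is given and centring on that median changes its call or direction, the centred ratio is also given. After centring 36 HOX genes were higher (92.3%) and 3 lower, where 74.1% of all entries were then higher and 25.9% lower. Among those higher are 3161 entries with equal values in both libraries, which centring moves above 0. Of all entries under 1 RPKM in VCaP, 14018 of 14162 were higher after centring, and so were 33 of 34 such HOX genes. For genes this low the direction after centring is thus nearly fixed, and it does not set the HOX genes apart. After quantile normalization 29 HOX genes were higher (74.4%, against 44.6% of all entries) and 10 lower (25.6%, against 55.4%). Low genes as a class tended to be higher in VCaP ERα: of all entries under 1 RPKM in VCaP, 65.3% were higher there and 15.4% reached 1 RPKM. Of the 34 HOX genes under 1 RPKM in VCaP, 31 were higher (91.2%) and 15 reached 1 RPKM (44.1%).

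**Figure D1:**
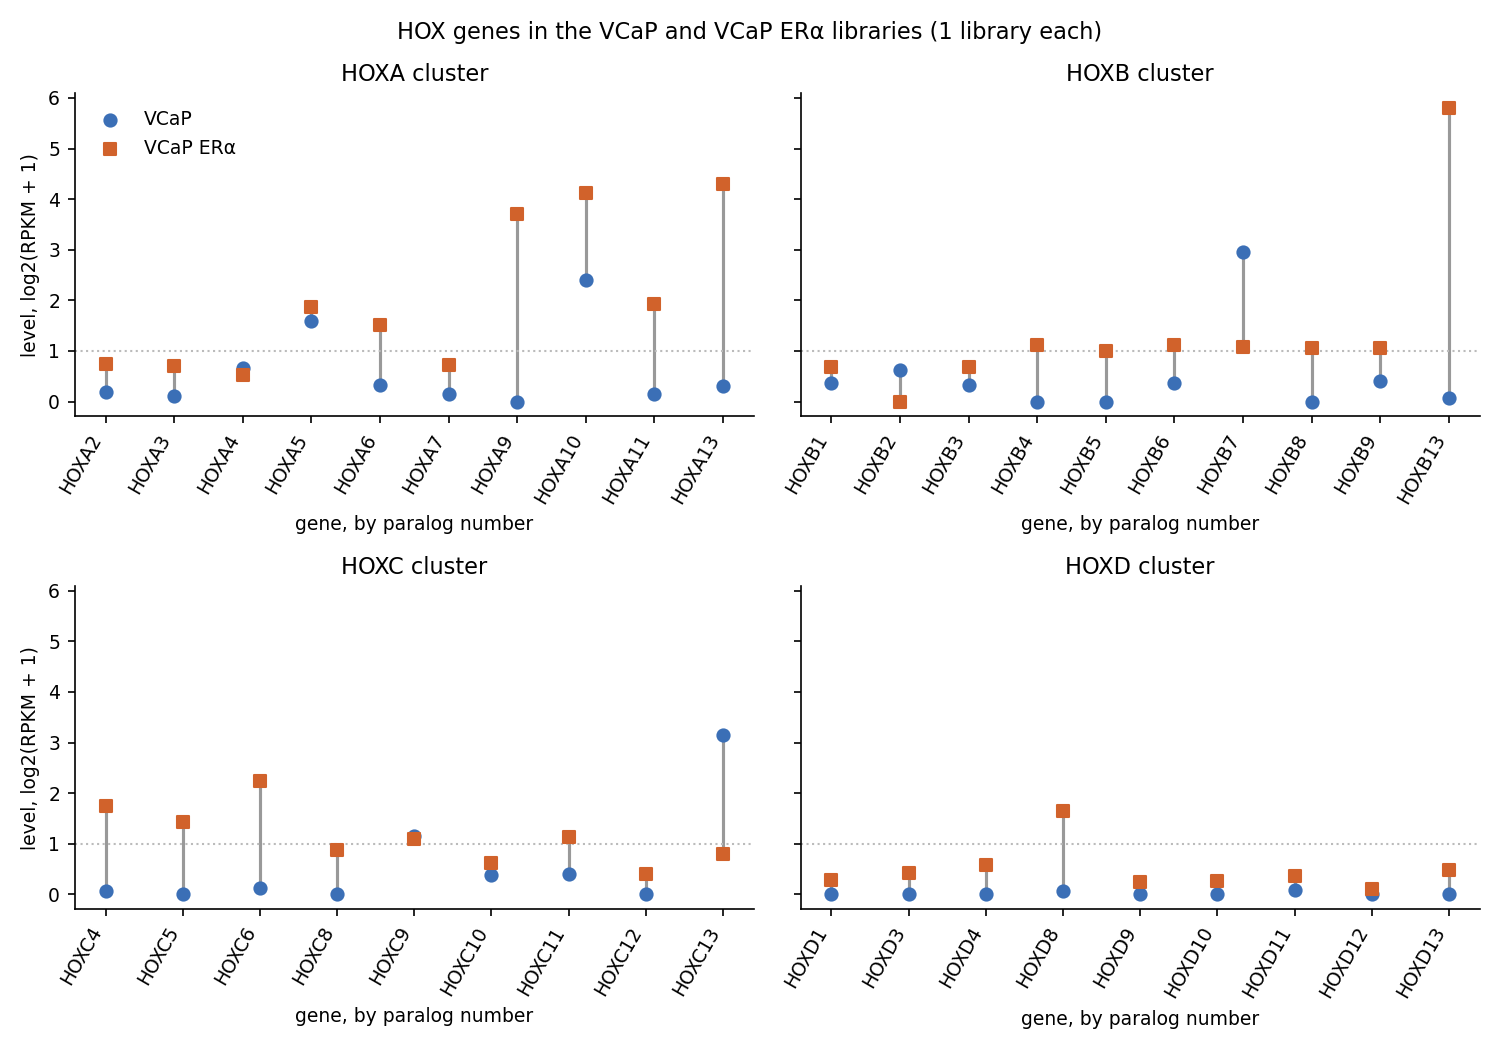
Level of the HOX genes reported here as log2(RPKM + 1), by cluster and paralog number, in VCaP (circles) and VCaP ERα (squares), 1 library each, with a grey line joining the values of a gene and a dotted line at 1 RPKM. HOXB13 stands highest in VCaP ERα at 54.6 RPKM, HOXC13 and HOXB7 stand highest in VCaP at 7.83 and 6.71 RPKM, and HOXD8 is the only HOXD gene above the dotted line.

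A 4-fold difference on this scale (a log2 ratio above 2 or below -2) was reached upwards by HOXB13, HOXA13, HOXA9 and HOXC6. These 4 of 39 genes are 10.3%, against 2.27% of all entries. It was reached downwards by 1 gene, HOXC13, or 2.56% of the genes against 6.56% of all entries. With 1 RPKM added, a log2 ratio below -2 needs more than 3 RPKM in VCaP, which 3 HOX genes had. The downward shares thus do not show that HOX genes were spared. After centring, 9 genes lay above 2 (23.1%, against 4.77% of all entries), among them the same 4. These 9 include HOXC4, HOXC5 and HOXC6, whose entries overlap. None lay below -2 after centring (3.35% of all entries), a count limited by low VCaP levels in the same way.

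HOXB13 was at 0.0479 RPKM in VCaP and at 54.6 RPKM in VCaP ERα, with a log2 ratio of 5.73. It ranked 537 by level among the 25932 entries in VCaP ERα and 16309 in VCaP, and by rise in log2 ratio it ranked 23. It alone held 40.0% of the summed HOX level in VCaP ERα. Without it the other 38 genes summed to 26.7 RPKM in VCaP and 81.9 in VCaP ERα. HOXB13 therefore led the HOX genes of VCaP ERα, while in VCaP it was among the low values of its cluster.

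The remaining HOXB genes did not share the level of HOXB13. HOXB1 to HOXB9 summed to 8.41 RPKM in VCaP and 7.87 in VCaP ERα. In VCaP most of that came from HOXB7, a central gene studied in breast cancer, at 6.71 RPKM. HOXB7 had 1.11 RPKM in VCaP ERα, which is 6.04-fold lower (log2 ratio -1.87). Its neighbours went the other way. HOXB6 had 0.291 RPKM in VCaP and 1.17 in VCaP ERα, and HOXB8 was listed at 0 in VCaP and had 1.09 RPKM in VCaP ERα. In VCaP ERα HOXB4 to HOXB9 were thus almost level, between 1.01 RPKM (HOXB5) and 1.18 RPKM (HOXB4), whereas in VCaP HOXB7 stood alone. HOXB4, a regulator of blood stem cells, and HOXB5 were listed at 0 in VCaP. HOXB9 had 0.324 and 1.09 RPKM.

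The anterior HOXB genes stayed under 1 RPKM in both libraries. HOXB1, a hindbrain patterning gene, had 0.287 RPKM in VCaP and 0.613 in VCaP ERα, and HOXB3 had 0.254 and 0.612 RPKM. HOXB2 was the exception in direction, with 0.545 RPKM in VCaP and a listed 0 in VCaP ERα. The span of the HOXB3 entry holds that of HOXB4 entirely, and 2502 bp of HOXB6 overlap the entry LOC404266, so reads there could be divided in more than 1 way.

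HOXB13 lies apart from the rest of its cluster, and the entries beside it followed it. HOXB13 is the entry chr17:44157125-44161110, separated from HOXB9 by 98.3 kb, where the largest gap between HOXB1 and HOXB9 is 11.7 kb. PRAC, a small nuclear protein gene expressed in prostate, rectum and colon, lies inside this gap, 2.24 kb from HOXB13. It was listed at 0 in VCaP and had 164 RPKM in VCaP ERα, with a log2 ratio of 7.36 that ranked 8 among all entries. PRAC2, which ends 6 bp before HOXB13 and was picked out after its values were seen, was listed at 0 in VCaP and had 3.60 RPKM in VCaP ERα (log2 ratio 2.20). With so small a gap, reads at the boundary of PRAC2 and HOXB13 could belong to either. Beyond HOXB13, at 33.5 kb, TTLL6 had a listed 0 and 0.750 RPKM. The high levels in VCaP ERα were thus those of HOXB13 and PRAC, and the next entries outward, HOXB9 and TTLL6, were at 1.09 and 0.750 RPKM there.

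**Figure D2:**
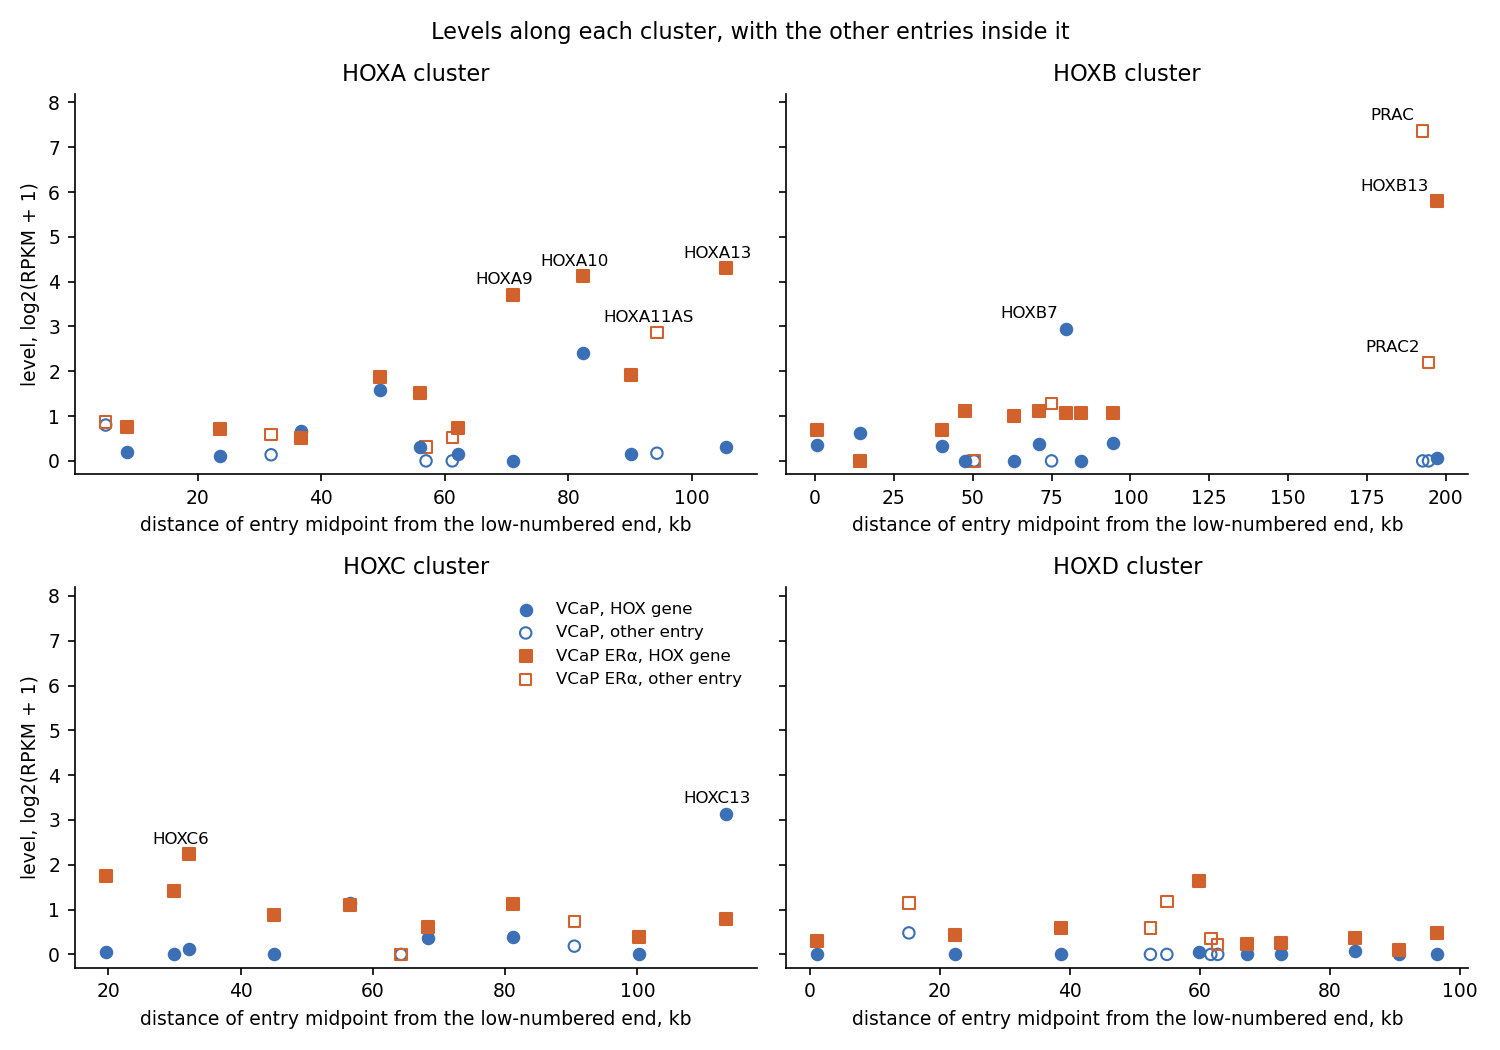
Level as log2(RPKM + 1) against the distance in kb of the midpoint of each entry from the low-numbered end of its cluster, for VCaP (blue circles) and VCaP ERα (orange squares). Filled symbols are HOX genes and open symbols are other entries inside the cluster. In VCaP ERα HOXA9, HOXA10 and HOXA13 stand above the other HOXA genes, and PRAC and HOXB13 above the other entries of HOXB. In VCaP single genes such as HOXB7 and HOXC13 stand above their neighbours.

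The posterior end of HOXA formed a block of mostly high levels in VCaP ERα. HOXA9, HOXA10, HOXA11 and HOXA13 summed to 4.64 RPKM in VCaP and 50.0 in VCaP ERα, 10.8-fold higher, and they held 36.6% of the summed HOX level there. The anterior and central HOXA genes summed to 3.69 and 7.20 RPKM. The step lay between HOXA7, at 0.655 RPKM in VCaP ERα, and HOXA9, at 12.1 RPKM, 5.76 kb away. HOXA11, at 2.80 RPKM there, lay near the central gene HOXA5, at 2.66 RPKM.

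HOXA13 (chr7:27203024-27206250), which patterns the distal limb and the urogenital tract, had 0.232 RPKM in VCaP and 18.7 in VCaP ERα, a log2 ratio of 4.00 that ranked 93. HOXA9 (chr7:27168582-27171674), a regulator of blood progenitors that is overexpressed in leukaemia, was listed at 0 in VCaP and had 12.1 RPKM in VCaP ERα, with a log2 ratio of 3.71 that ranked 108. Both were near 0 in VCaP and among the 4 highest HOX genes in VCaP ERα. HOXA10, needed for uterine development, was expressed in both libraries, with 4.30 and 16.4 RPKM, 3.82-fold higher in VCaP ERα (log2 ratio 1.72, or 2.31 after centring). HOXA11, a gene of the kidney, limb and reproductive tract, had 0.109 and 2.80 RPKM (log2 ratio 1.78, or 2.37 after centring). In VCaP HOXA10 was thus the one gene of this block above 1 RPKM, between neighbours at 0 and at 0.109 RPKM.

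HOXA11AS, the antisense transcript whose entry starts 184 bp beyond that of HOXA11, had 0.126 RPKM in VCaP and 6.30 in VCaP ERα, a log2 ratio of 2.70. It is not a member by the rule. Its level exceeded that of HOXA11 in VCaP ERα. The libraries keep the strand, but whether strand was used in counting is not given in the sources used here, so reads of this pair may be mixed. EVX1, the homeobox gene 42.4 kb beyond HOXA13, had 0.00533 and 0.408 RPKM, so the high levels did not reach it.

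Among the anterior and central HOXA genes, HOXA5 was the highest in both libraries. HOXA5, which is often silenced in breast cancer, had 2.01 RPKM in VCaP and 2.66 in VCaP ERα, a log2 ratio of 0.28. HOXA6 had 0.248 and 1.85 RPKM (log2 ratio 1.19), but 5436 bp of its span overlap the entry AX747263. HOXA7 had 0.108 and 0.655 RPKM. HOXA2, a gene of the branchial arches, had 0.140 and 0.681 RPKM, and HOXA3 had 0.0819 and 0.634 RPKM. HOXA4 was slightly higher in VCaP, with 0.586 against 0.430 RPKM, and after centring its log2 ratio was 0.44, in the other direction. HOXA2, HOXA3, HOXA4 and HOXA7 thus stayed under 1 RPKM in both libraries.

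In HOXC the posterior sum was higher in VCaP, unlike in HOXA and HOXB, and the central sum was higher in VCaP ERα. The posterior genes HOXC9 to HOXC13 summed to 9.67 RPKM in VCaP and 3.92 in VCaP ERα. That direction rested on HOXC13, with 7.83 and 0.741 RPKM. Of the 5 posterior HOXC genes 3 were higher and 2 lower in VCaP ERα. The central HOXB sum was likewise larger in VCaP through HOXB7 alone, while 4 of the 5 central HOXB genes were higher in VCaP ERα. The central genes HOXC4, HOXC5, HOXC6 and HOXC8 summed to 0.132 and 8.56 RPKM. The cluster as a whole, at 9.80 and 12.5 RPKM, was 1.27-fold higher in VCaP ERα, the smallest fold of the 4 clusters. The entries of HOXC4, HOXC5 and HOXC6 share 13966 bp, so the central and cluster sums may hold the same reads repeatedly.

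HOXC13 (chr12:52618843-52626595), a regulator of hair and nail keratins, had 7.83 RPKM in VCaP and 0.741 in VCaP ERα, 10.6-fold lower, with a log2 ratio of -2.34. It was the highest HOX gene of VCaP and held 29.3% of the summed HOX level there. After centring its log2 ratio was -1.75. HOXC12, 8.38 kb away, was listed at 0 in VCaP and had 0.317 RPKM in VCaP ERα, so HOXC13 stood alone at that end in VCaP. HOXC11 had 0.316 and 1.18 RPKM, and HOXC10 had 0.298 and 0.536 RPKM. HOTAIR, a long non-coding RNA transcribed between HOXC12 and HOXC11, had 0.136 and 0.663 RPKM. HOXC9 had nearly equal values, 1.23 RPKM in VCaP and 1.14 in VCaP ERα (log2 ratio -0.05, or 0.54 after centring).

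HOXC6, known to be raised in prostate cancer, had 0.0869 RPKM in VCaP and 3.70 in VCaP ERα, a log2 ratio of 2.11. HOXC4 had 0.0415 and 2.34 RPKM (log2 ratio 1.68, or 2.27 after centring). HOXC5 had a listed 0 and 1.68 RPKM (log2 ratio 1.42, or 2.01 after centring). These 3 entries begin at the same base, chromosome 12 position 52696909, and the files place a transcript described as a form of HOXC6 under the HOXC5 entry. Reads in the shared part could count towards more than 1 of them, so they are not 3 separate observations. HOXC8, which does not overlap them, had 0.00354 and 0.843 RPKM.

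HOXD was nearly silent in both libraries. All 9 genes were higher in VCaP ERα, but 7 of them were listed at 0 in VCaP and 8 stayed under 1 RPKM in VCaP ERα. The cluster summed to 0.105 RPKM in VCaP and 4.35 in VCaP ERα. HOXD8, a central gene, was the highest, with 0.0426 RPKM in VCaP and 2.13 in VCaP ERα (log2 ratio 1.59, or 2.18 after centring). HOXD8 thus supplied the largest part of the HOXD level in VCaP ERα. The next was HOXD4, with a listed 0 and 0.495 RPKM. HOXD13, which patterns the digits, had a listed 0 and 0.398 RPKM. HOXD11 was the other gene above 0 in VCaP, with 0.0620 RPKM and 0.287 RPKM in VCaP ERα. HOXD1, HOXD3, HOXD9, HOXD10 and HOXD12 were listed at 0 in VCaP and lay between 0.0782 RPKM (HOXD12) and 0.349 RPKM (HOXD3) in VCaP ERα. The neighbour beyond its posterior end, EVX2, had a listed 0 and 0.0822 RPKM, whereas the flanking genes MTX2 (7.70 and 17.5 RPKM) and LNP (8.17 and 5.70 RPKM) were expressed in both.

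Grouped by paralog number, most of the summed HOX level in VCaP ERα came from posterior genes, chiefly HOXB13 and the posterior HOXA genes. The anterior genes (groups 1 to 3, 8 genes) summed to 1.82 RPKM in VCaP and 3.40 in VCaP ERα, and 0 of 8 reached 1 RPKM in either library. Of the 15 central genes (groups 4 to 8), 2 reached 1 RPKM in VCaP and 11 did in VCaP ERα, with summed levels of 10.1 and 22.3 RPKM. The central counts and sums include the overlapping entries of HOXC4, HOXC5 and HOXC6. Of the 16 posterior genes (groups 9 to 13), 3 reached 1 RPKM in VCaP and 8 did in VCaP ERα, with summed levels of 14.7 and 111 RPKM. Of the 111 RPKM, HOXB13 had 54.6 and the posterior HOXA genes 50.0. The posterior sum was also the largest in VCaP. The median log2 ratios were 0.34, 1.01 and 0.44 in the same order. The share of genes higher in VCaP ERα was 75.0% of the anterior, 86.7% of the central and 87.5% of the posterior genes. It was 46.6% of all entries and 65.3% of those under 1 RPKM in VCaP, where every anterior gene lay. The anterior share is thus near its base. After quantile normalization 4 of 8 anterior, 13 of 15 central and 12 of 16 posterior genes were higher, against 44.6% of all entries. Of all entries 45.4% reached 1 RPKM in VCaP and 46.0% in VCaP ERα.

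Of the 13 paralog groups, 7 had every gene higher in VCaP ERα and 6 had genes in both directions. After centring 10 groups went in a single direction, and after quantile normalization 4 did. Of all entries under 1 RPKM in VCaP, 65.3% were higher in VCaP ERα, and 14018 of 14162 were after centring. The groups hold few genes, most of them low in VCaP, so these counts do not show agreement between paralogs. In group 13, HOXA13 and HOXB13 were higher in VCaP ERα, HOXC13 was higher in VCaP, and HOXD13 stayed under 1 RPKM in both. The library labelled VCaP thus had HOXC13 as its only group 13 gene above 1 RPKM, and VCaP ERα had HOXA13 and HOXB13. In group 9, HOXA9 was high in VCaP ERα, HOXB9 and HOXC9 were near 1 RPKM there, and HOXD9 was at 0.181 RPKM. In group 7, HOXB7 was the higher gene in both libraries but was lower in VCaP ERα, while HOXA7 was higher there. In group 6 all 3 genes were at or below 0.291 RPKM in VCaP and above 1 RPKM in VCaP ERα.

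**Figure D3:**
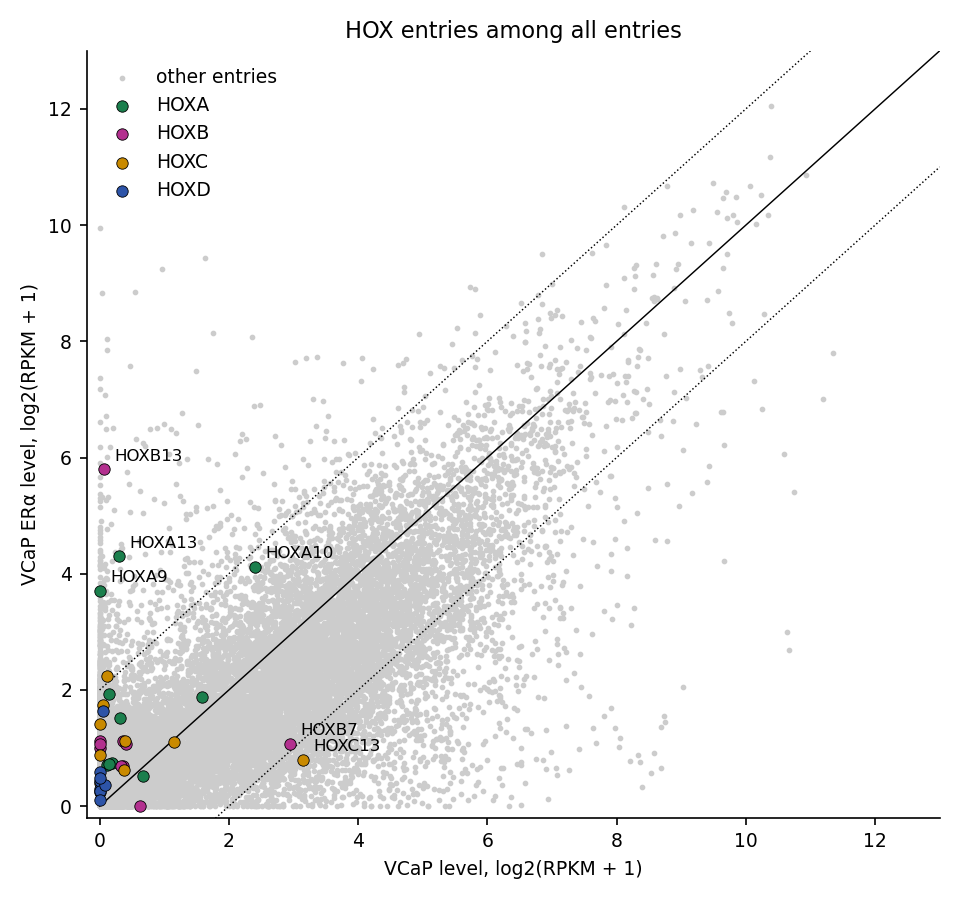
Level in VCaP ERα against level in VCaP, both as log2(RPKM + 1), for the HOX genes (coloured by cluster) and all other entries (grey). The solid line marks equal levels and the dotted lines log2 ratios of 2 and -2. Most HOX genes lie against the left edge, near 0 in VCaP, with HOXB13, HOXA13 and HOXA9 far above the upper dotted line and HOXC13 below the lower one.

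The libraries also differed in which few genes made up their HOX expression. In VCaP HOXC13, HOXB7 and HOXA10 together held 70.6% of the summed HOX level. In VCaP ERα HOXB13, HOXA13, HOXA10 and HOXA9 together held 74.6%. HOXA10 was the one gene on both lists. HOXA, HOXB and HOXC held similar shares in VCaP (31.2%, 31.7% and 36.7%), while in VCaP ERα HOXA and HOXB held 41.9% and 45.8% and HOXC held 9.14%.

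Other entries inside the clusters, taken by position after the values were known, mostly went with VCaP ERα. Of 16 such entries, 14 were higher in VCaP ERα (87.5%, against 65.3% of all entries under 1 RPKM in VCaP), 0 were lower and 2 were listed at 0 in both. None reached 1 RPKM in VCaP and 6 of the 16 did in VCaP ERα, as did 15.4% of all entries under 1 RPKM in VCaP. Beside PRAC, HOXA11AS and PRAC2 these were LOC404266 in HOXB (a listed 0 and 1.44 RPKM) and BC034000 and BC047481 in HOXD (0 and 1.27 RPKM, and 0.394 and 1.22 RPKM). Several of the 16 overlap HOX genes, such as AX747263 (5436 bp of HOXA6) and LOC404266 (2502 bp of HOXB6), and AX747372 has repeated entries. The 16 are thus not independent of the HOX values. The genes CDX1, CDX2 and CDX4, caudal factors that act on posterior HOX genes in the embryo, were all listed at 0 in VCaP and had 1.07, 0.364 and 0.111 RPKM in VCaP ERα.

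Of 9 TALE cofactor genes, 6 were lower in VCaP ERα (66.7%) and 3 were higher. This share lay near the 70.9% lower among all entries at 1 RPKM in both libraries, and above the 41.2% of all entries. The median log2 ratio of the 9 genes was -1.18, against -0.59 for the entries at 1 RPKM in both libraries. After centring 5 of the 9 were lower, with a median of -0.59. Of the 9, 7 reached 1 RPKM in VCaP and 5 in VCaP ERα, so neither base is matched to the list. MEIS1 had 1.75 and 0.218 RPKM (log2 ratio -1.18), and MEIS2 had 2.74 and 0.128 RPKM (log2 ratio -1.73). PBX3 had 9.51 and 10.9 RPKM and was the most abundant cofactor in VCaP ERα. PKNOX1 had 3.43 and 3.76 RPKM. Both MEIS1 and MEIS2 were under 1 RPKM in VCaP ERα.

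Of 23 Polycomb entries 17 were lower (73.9%, near the same 70.9%) and 6 higher in VCaP ERα, with a median log2 ratio of -0.49, close to the -0.59 of all entries expressed in both libraries. After centring 13 were higher and 10 lower. Within the complex that methylates histone H3 at lysine 27, members went in both directions. EZH2, the methyltransferase, had 8.52 RPKM in VCaP and 1.30 in VCaP ERα (log2 ratio -2.05, or -1.46 after centring). SUZ12, a core subunit of the same complex, had 2.35 and 16.9 RPKM (log2 ratio 2.42). EED, the subunit that binds the methylated histone, had 4.98 and 4.06 RPKM (log2 ratio -0.24, or 0.35 after centring). JARID2, an accessory subunit, had 20.8 and 1.38 RPKM (log2 ratio -3.20), the lowest log2 ratio of the list. BMI1 shares its entry with COMMD3, so the 21.6 and 15.4 RPKM listed cannot be given to either gene.

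Of 14 Trithorax entries 9 were lower (64.3%) and 5 higher, with a median log2 ratio of -0.31 (0.28 after centring, when 9 were higher and 5 lower). MLL, the methyltransferase that maintains HOX expression, had 10.5 RPKM in VCaP and 5.37 in VCaP ERα. MEN1, encoding menin, its partner, had 8.68 and 8.96 RPKM. RBBP5, a shared core subunit of the MLL complexes, had 15.7 and 2.53 RPKM (log2 ratio -2.25, or -1.66 after centring) and was the one entry with a log2 ratio past 2 or -2. PSIP1, which tethers menin and MLL to chromatin, had 1.58 and 6.18 RPKM (log2 ratio 1.48, or 2.07 after centring). As a list the Trithorax entries thus had no direction that held under centring.

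**Figure D4:**
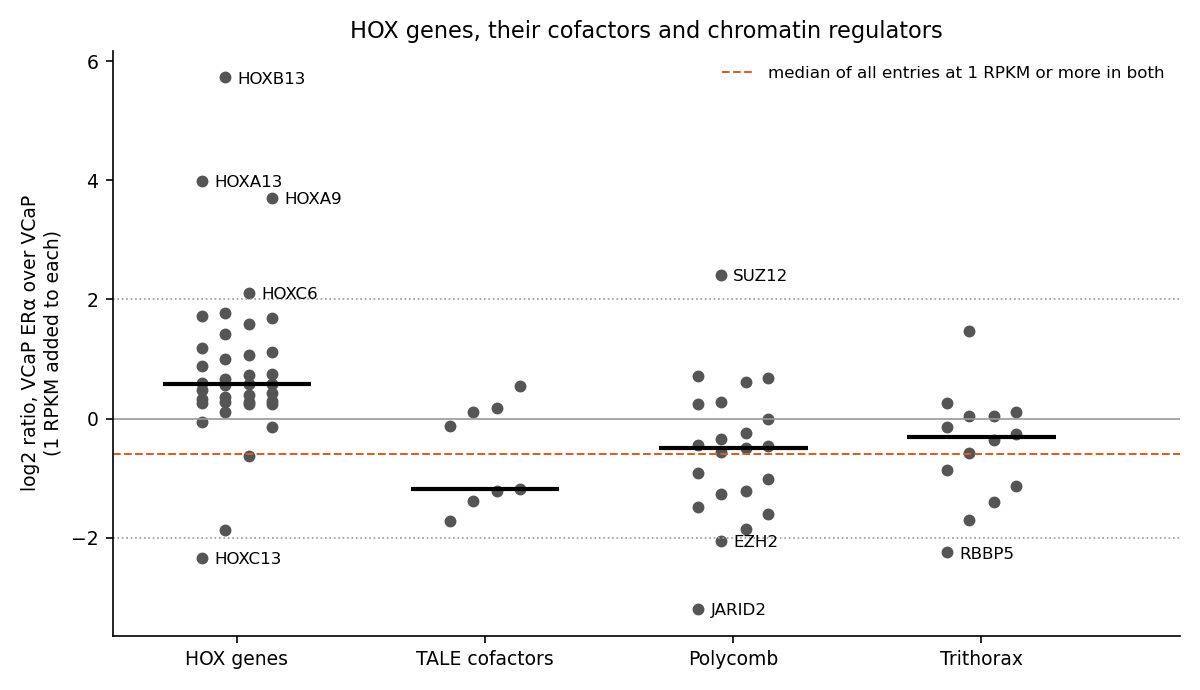
Log2 ratios of VCaP ERα over VCaP, with 1 RPKM added to each value, for the HOX genes and the entries of the TALE cofactor, Polycomb and Trithorax lists. Points are the entries reported here (named past 2 or -2), horizontal bars are medians of the whole lists, and the dashed line is the median of all entries reaching 1 RPKM in each library (-0.59); the median of the HOX genes lies above 0 and that of the TALE cofactors below the dashed line.

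Of 18 entries neighbouring the clusters, 13 reached 1 RPKM in VCaP and 14 did in VCaP ERα. Among the 18, 7 were higher and 11 lower in VCaP ERα, with a median log2 ratio of -0.42. The 61.1% lower stood against 70.9% of the entries at 1 RPKM in both libraries and 41.2% of all entries. HIBADH, beside HOXA, had 12.5 and 13.5 RPKM. Beside HOXC, CALCOCO1 had 30.1 and 6.76 RPKM, a log2 ratio just past -2 and of -1.41 after centring. PRAC, within the HOXB cluster, was the one neighbour above 2.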

How the data were processed

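Total RNA of VCaP and VCaP ERα cells was depleted of rRNA and sequenced with strand marking, 1 library each. The authors deposited RPKM values for known-gene entries. The submitters' processing notes list CASAVA 1.8 and the builds hg18 and mm10, with no role given. Aligner and counting method are not given in the sources used here, and the total read number is unknown. The other 2 libraries of the series, from mouse fibroblasts, were not used.

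The log2 ratio of VCaP ERα over VCaP was computed for all entries with a pseudocount of 1 RPKM and a threshold of 2. With 1 library per condition no test was made. HOX members are named, and of the other lists entries past the threshold with at most 6 others. Some genes of these lists are not reported here by name; they remain in the counts, medians and sums. Members and lists were chosen with earlier results of these data known. Alternatives were a pseudocount of 0.1 RPKM, a threshold of 1, other expression limits, a minimum of 1 RPKM, 1 entry per symbol, centring and quantile normalization. Calculations were tested on simulated data. Calculations used numpy 2.4.6 and pandas 2.3.3 under Python 3.11.15. No human sequence was used here.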

Additional observations from a re-analysis of the deposited data

How the results depend on the processing

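Counts within 1.5 times of the original were treated as equal, and so was a median or summed level within 0.58 on the log2 scale, since no replicate spread exists. No paired analysis was possible because each condition is 1 library, and no library could be left out. With a pseudocount of 0.1 RPKM, 18 HOX genes lay above 2 and 3 below -2. With a threshold of 1, 13 lay above and 2 below, where 2375 of all 25932 entries lay above and 4786 below. After centring, 9 lay above, 0 below and 3 genes were lower in VCaP ERα. After quantile normalization 5 lay above, 1 below and 10 genes were lower. HOXB13, HOXA13, HOXA9 and HOXC6 were above 2 under each of these scalings and pseudocounts. Centring raises every log2 ratio here, and the smaller pseudocount enlarges every ratio above 0. Of these settings only quantile normalization could thus have removed any of the 4. HOXC13 was below -2 except after centring. With a minimum of 1 RPKM in 1 library, 17 genes were higher and 3 lower. Of all 13954 entries passing that minimum, 5020 were higher and 8934 lower. At limits of 0.5 and 3 RPKM, 8 and 3 HOX genes were expressed in VCaP, and 5 in VCaP ERα at 3 RPKM. Shares of all entries are not given for these limits or for the pseudocount of 0.1 RPKM. They are also not given for calls past 2 or -2 after quantile normalization. Those HOX counts therefore do not set the HOX genes apart from other entries. Keeping 1 entry per symbol changed no HOX count or summed level.

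Median log2 ratios with a pseudocount of 0.1 RPKM were 1.91 in HOXA, 1.59 in HOXB, 2.06 in HOXC and 1.69 in HOXD, and 1.35, 3.19 and 1.60 in anterior, central and posterior genes. After centring they were 1.19, 1.29, 1.32 and 0.88 in the clusters, 0.93, 1.60 and 1.03 in the segments, and -0.59, 0.10 and 0.28 for the TALE, Polycomb and Trithorax lists, so the last 2 changed direction. After quantile normalization the Trithorax median was 0.33 and the HOXD sum in VCaP 0.745 RPKM. With a minimum of 1 RPKM the medians were 1.75 in HOXA, 1.59 in HOXD and 1.72 in posterior genes. Depth is unknown, so whether the values near 0, down to 0.00354 RPKM for HOXC8, stand for a whole read cannot be told.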
